A study of Homo sapiens with 12 samples.

Results

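The genes described here encode the enzymes and regulators of cholesterol and fatty acid synthesis. They were named by symbol: 29 genes that run from the first steps of the mevalonate pathway to cholesterol, the factors that switch these enzymes on and off, and the enzymes that build, elongate and desaturate fatty acids. On the array 26 of the 29 had a probe set whose only annotated gene was the member, out of 19775 genes with such a probe set. FDFT1, CYP51A1 and FADS1 were not analysed here. Where a gene had several probe sets, the one that was brightest on average was used. The 26 measured members also passed the filter for the tests, a log2 intensity of at least 6 in at least 4 arrays, which 10157 genes passed.

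Animal cells make cholesterol from acetyl-CoA. The mevalonate pathway yields isoprenoid units that are joined to farnesyl and then to squalene, and squalene is closed to lanosterol and trimmed to cholesterol. Fatty acids come from the same acetyl-CoA, which ATP citrate lyase makes in the cytosol, acetyl-CoA carboxylase activates and fatty acid synthase polymerises. Transcription of most of these genes is driven by the SREBP factors, which INSIG proteins hold in the endoplasmic reticulum while sterols are plentiful, so the enzymes tend to be regulated together.

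The study asked how eIF4G1, the scaffold of the cap-binding complex that recruits ribosomes to mRNA, and DNA damage shape the mRNAs that are present and translated. MCF10A cells in which doxycycline switched on a short hairpin RNA against eIF4G1 (knockdown, KD) and wild-type (WT) cells were each given 10 Gy from a linear accelerator or a mock treatment. For each of these 4 conditions 3 arrays were run, on heavy polysomes (HMW), light polysomes (LMW) and total RNA (Total), which makes 12 arrays with 1 per group. The labels give breast cancer as the origin of MCF10A, an established line that is commonly described as derived from mammary epithelium without tumour. Neither the time after irradiation nor any control hairpin or doxycycline in WT cells is given in the labels, so the effects of hairpin, doxycycline and eIF4G1 loss cannot be told apart. Ribosome numbers are given for the WT mock pools, 1 to 3 for LMW and 4 or more for HMW, and not for the other pools. The p-values below rest only on the spread between these arrays, and no label ties them to independent cultures. For knockdown and 10 Gy within LMW or HMW, that spread was pooled completely over genes. The same holds where the knockdown effect in HMW is set against that in Total or LMW, and where that in LMW is set against Total. In all of these a gene's p-value takes no account of that gene's own scatter.

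The EIF4G1 transcript in knockdown cells was at 20.4% (10 Gy) and 15.9% (mock) of WT in Total, at 23.5% and 26.8% in LMW, and at 9.43% and 6.36% in HMW. Median intensities of the arrays lay between 22.6 and 24.4, and the number of arrays limits the precision. The 2 WT mock polysome arrays stood apart in their spread against Total. The SD over genes of HMW minus Total was 1.11 in WT mock cells and 0.66 to 0.70 in the other conditions. That of LMW minus Total was 1.42 against 0.95 to 0.97. Within LMW the Pearson correlation with mock and irradiated knockdown was alike for WT mock (0.896 and 0.862) and irradiated WT (0.888 and 0.861). Within HMW it was lower for WT mock (0.880 and 0.854) than for irradiated WT (0.945 and 0.932). The SD of HMW minus LMW was instead largest in irradiated WT cells, at 0.89, against 0.66 to 0.72 in the other conditions. Of the markers of basal mammary epithelium, the cell type MCF10A is known to resemble, 7 of 7 measured ones were above the filter level in all 12 arrays. Of the markers of cell types that also make lipids, 4 of 4 for adipocytes and 2 of 3 for hepatocytes lay below it in every array, with the log2 of their summed level from 5.63 to 5.84 in knockdown and 5.60 to 5.87 in WT arrays for the adipocyte list.

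In total RNA the pathway was lower in knockdown cells. Of the 26 members 15 fell and 0 rose in the limma fit of the 4 Total arrays, where 19.8% of all tested genes fell and 20.7% rose. The median difference, knockdown minus WT on the log2 scale, was -0.46 over the members and 0.03 over all genes tested. In 19 of 26 members both knockdown arrays lay below both WT arrays, against 31.2% of all genes, and in 3 both lay above, against 36.5%. In such bulk RNA, fewer cells of a kind and less RNA per cell cannot be told apart. The actin 3' minus 5' signal, a sign of RNA integrity, ran from 1.55 to 2.10 on the log2 scale in the Total arrays, and its part in the result was not tested.

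**Figure D1:**
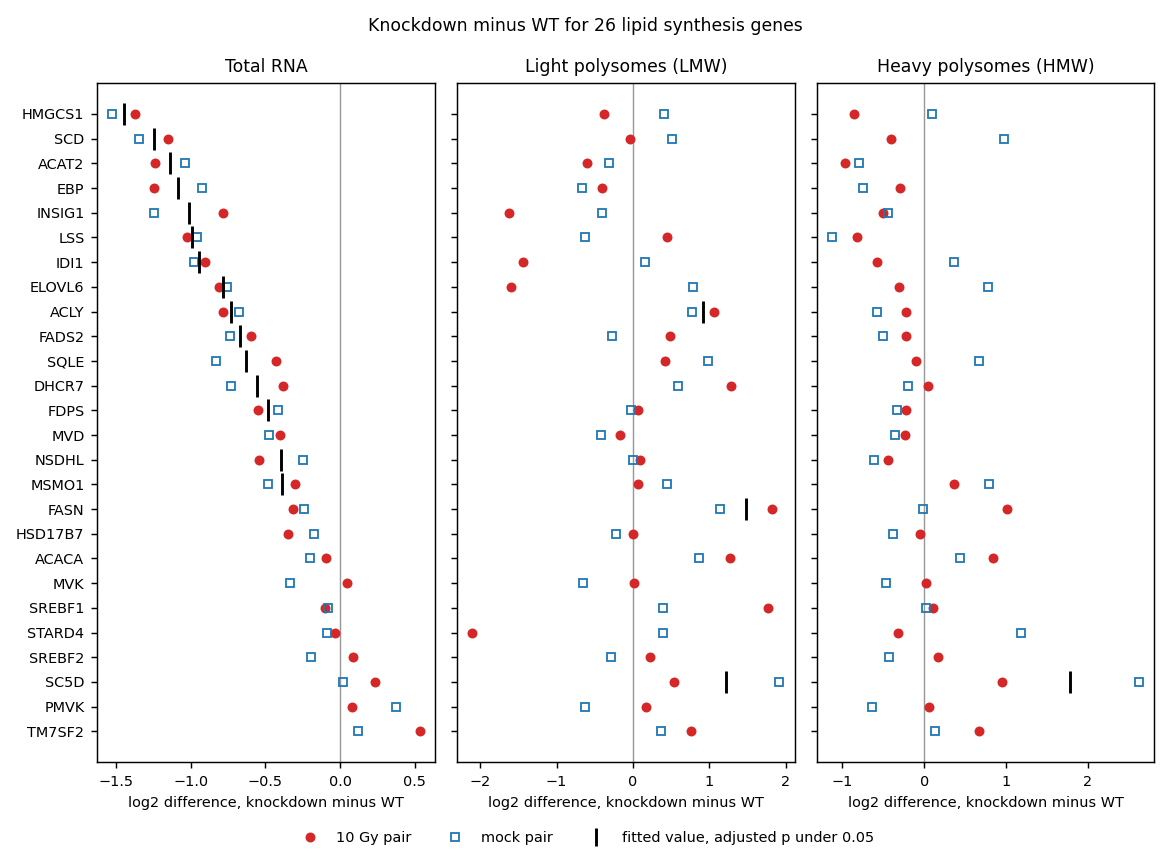
Log2 difference, knockdown minus WT, of 26 lipid synthesis genes in total RNA, light polysomes and heavy polysomes. Circles are the 10 Gy pair, squares the mock pair, and black bars mark fitted values that passed the test. The genes are ordered by their value in Total, where 15 bars lie below 0, while 3 bars in LMW and 1 in HMW lie above 0.

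Among the 7 measured enzymes that lead to farnesyl diphosphate, 4 fell in Total. HMGCS1, which condenses acetyl-CoA and acetoacetyl-CoA to HMG-CoA, had a log2 level of 7.64 after 10 Gy and 7.85 after mock treatment in knockdown cells, against 9.01 and 9.38 in WT cells. Both knockdown arrays were more than 1 log2 unit below either WT array, and the fitted difference was -1.45 (SE 0.107, limma adjusted p = 1.40e-05), which left 36.7% of the WT level. ACAT2, the cytosolic thiolase of the preceding step, had 8.78 after 10 Gy and 8.95 after mock treatment in knockdown cells, against 10.02 and 9.99 in WT cells. It fell by 1.14 on the log2 scale (SE 0.103, limma adjusted p = 3.66e-05), to 45.4% of WT, again without overlap. IDI1, the isomerase that supplies the reactive isoprenoid unit, was at 9.95 and 9.96 in knockdown cells, against 10.85 and 10.94 in WT cells in the same order of treatments, a difference of -0.94 (SE 0.0884, limma adjusted p = 4.37e-05). FDPS, which joins these units to farnesyl diphosphate, fell by less, with -0.48 (SE 0.0746, limma adjusted p = 0.000748). The 3 enzymes between HMG-CoA and the isomerase that were measured did not pass: MVD, the decarboxylase, was at -0.44 (SE 0.162, limma adjusted p = 0.0538), the mevalonate kinase MVK at -0.15 and the phosphomevalonate kinase PMVK at 0.23. MVD was below the filter level in both knockdown arrays, at 5.72 and 5.72.

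From squalene onward, 6 of 9 measured enzymes fell. EBP, the sterol isomerase, had a log2 level of 9.52 after 10 Gy and 9.83 after mock treatment in knockdown cells, against 10.76 and 10.75 in WT cells, and its fitted difference was -1.09 (SE 0.104, limma adjusted p = 4.88e-05). LSS, which closes squalene epoxide to lanosterol, had 8.72 and 8.79 in knockdown cells, against 9.74 and 9.75 in WT cells. The groups did not overlap for either gene, and LSS differed by -0.99 (SE 0.100, limma adjusted p = 6.54e-05), that is 50.3% of WT. Smaller declines were found for the squalene epoxidase SQLE (-0.63), the last-step reductase DHCR7 (-0.56), the demethylation enzyme NSDHL (-0.40) and the C4 methyl oxidase MSMO1 (-0.39), with limma adjusted p from 0.00112 (SQLE) to 0.0203 (NSDHL). HSD17B7, a ketoreductase of the same demethylation complex, was at -0.26 and did not pass. SC5D, the desaturase that works next to DHCR7, was at 0.13, and the sterol reductase TM7SF2 at 0.33, with both knockdown arrays above both WT arrays for each. TM7SF2 was below the filter level in 3 of the 4 Total arrays.

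Of the 4 measured regulators and sterol carriers INSIG1 fell, and the 2 SREBP genes and STARD4 did not pass. INSIG1, the sterol-sensing anchor that is itself an SREBP target, had 8.05 after 10 Gy and 8.10 after mock treatment in knockdown cells, against 8.83 and 9.35 in WT cells. The fitted difference was -1.01 (SE 0.127, limma adjusted p = 0.000223), and the other probe sets of INSIG1 gave -0.97 and -0.90. SREBF1, which encodes the factor that favours fatty acid genes, had 7.13 and 7.30 in knockdown cells, against 7.24 and 7.38 in WT cells, a difference of -0.09 (SE 0.115, limma adjusted p = 0.563). SREBF2, which encodes the factor that favours cholesterol genes, was at -0.06 (SE 0.124, limma adjusted p = 0.757), and STARD4, a cytosolic sterol carrier, at -0.06 (SE 0.104, limma adjusted p = 0.686). The knockdown and WT arrays overlapped for SREBF1, SREBF2 and STARD4.

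In the fatty acid branch 4 of 6 measured genes fell. SCD, the desaturase that makes oleic from stearic acid, had 10.42 after 10 Gy and 10.54 after mock treatment in knockdown cells, against 11.58 and 11.89 in WT cells, so that both knockdown arrays lay more than 1 log2 unit below WT. Its fitted difference was -1.25 (SE 0.0847, limma adjusted p = 9.16e-06), or 42.1% of WT. The other SCD probe sets gave -0.63, -0.48 and -0.15, and with the median of its probe sets SCD did not pass (-0.40, limma adjusted p = 0.0511). ELOVL6, which elongates palmitic acid, fell by 0.79 (SE 0.0937, limma adjusted p = 0.000166), ACLY, the ATP citrate lyase, by 0.73 (SE 0.0807, limma adjusted p = 0.000107) and FADS2, the desaturase of polyunsaturated fatty acids, by 0.67 (SE 0.125, limma adjusted p = 0.00227). FASN, the fatty acid synthase, was at -0.28 (SE 0.107, limma adjusted p = 0.0652) and ACACA, the acetyl-CoA carboxylase, at -0.15 (SE 0.0978, limma adjusted p = 0.266). Neither passed, although both knockdown arrays lay below both WT arrays.

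Because 15 members fell in Total, the promoters of the members were read from RefSeq (GRCh38.p14). The windows spanned 250 bases before to 50 after a gene's start, 300 in all, and 25 of the 29 members had at least 1 that was searched. ACAT2, FASN, FDFT1 and SQLE had no searched window. Member windows on 1 chromosome were left out of the search, while the values for all genes include that chromosome. The bases before the start are shown for 4 of them: SCD and HMGCS1, which had the lowest differences in Total, INSIG1, the regulator that fell, and SREBF2. SREBF2 is among the regulators that did not pass and alone had the sterol response element. SREBF1 and STARD4, which did not pass either, are not shown. Capitals mark the CCAAT box (CCAAT, or ATTGG where it lies on the opposite strand) and, in SREBF2, the sterol response element searched as TCACNCCAC. Positions are SCD chr10:100346983-100347232, plus strand, HMGCS1 chr5:43313413-43313662, minus strand, INSIG1 chr7:155297628-155297877, plus strand and SREBF2 chr22:41832855-41833104, plus strand.
SCD: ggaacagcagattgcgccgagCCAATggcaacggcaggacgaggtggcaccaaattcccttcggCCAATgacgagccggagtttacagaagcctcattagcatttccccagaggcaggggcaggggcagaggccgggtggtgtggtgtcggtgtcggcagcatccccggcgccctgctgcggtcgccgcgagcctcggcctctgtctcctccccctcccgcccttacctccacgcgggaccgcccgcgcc
HMGCS1: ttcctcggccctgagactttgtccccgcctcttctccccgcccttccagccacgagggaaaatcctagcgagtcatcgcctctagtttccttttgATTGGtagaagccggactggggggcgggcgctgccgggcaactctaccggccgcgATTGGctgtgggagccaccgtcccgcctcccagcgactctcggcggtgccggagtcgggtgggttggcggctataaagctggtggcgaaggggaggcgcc
INSIG1: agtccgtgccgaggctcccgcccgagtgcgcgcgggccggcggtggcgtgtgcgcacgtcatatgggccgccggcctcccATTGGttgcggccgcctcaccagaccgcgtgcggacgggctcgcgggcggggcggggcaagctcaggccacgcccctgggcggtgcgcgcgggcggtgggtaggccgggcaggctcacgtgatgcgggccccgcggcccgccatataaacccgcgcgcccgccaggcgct
SREBF2: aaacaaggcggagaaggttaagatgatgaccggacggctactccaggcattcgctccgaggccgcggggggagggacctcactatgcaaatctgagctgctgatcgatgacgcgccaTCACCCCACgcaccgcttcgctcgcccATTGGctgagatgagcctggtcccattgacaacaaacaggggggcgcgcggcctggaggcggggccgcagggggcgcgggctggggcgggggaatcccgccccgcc
The CCAAT box, which binds the factor NF-Y, was found on either strand in 20 of the 25 members with a searched window, against 39.7% of the 27305 genes in the table. It lay in 24 of 34 member windows, against 34.6% of all 35116 windows, and 7 members had several windows, which gives them more chances of a match. By the test in Total it was in 12 of 13 members that fell and had a searched window (ELOVL6 had no match). It was in 8 of 10 that did not pass (PMVK and SREBF1 had no match). ACAT2 and SQLE, which also fell, are not among the 13. The sterol response element TCACNCCAC was found in SREBF2 alone, 1 of 25 members, against 1.39% of all genes. The GC box GGGCGG was in 24 of 25 members, against 48.3% of all genes, and the E-box CACGTG in 3, INSIG1, LSS and SC5D, against 8.77%. These matches describe letters within the windows, and no match says only that these letters are not there.

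On polysomes 0 members passed as lower in knockdown cells. In LMW 3 of 26 members rose and 0 fell, where 10.3% of all genes rose and 5.10% fell, and the median difference was 0.02 over the members and -0.00169 over all genes. In HMW 1 rose and 0 fell, against 5.82% and 4.09% of all genes, with a median of -0.17 over the members and -0.00488 over all genes. At an unadjusted limma p under 0.05, 6 members were higher and 2 lower in LMW, where 27.7% of all genes passed in either direction, and 1 was higher and 3 lower in HMW, where 20.3% did. In these fits limma pooled the spread completely over genes, so a member's p-value takes no account of the scatter of that member between the 2 pairs. Both knockdown arrays lay below both WT arrays in LMW for 3 members, ACAT2, EBP and INSIG1 (27.5% of all genes), and above for 9 (30.4%). In HMW they lay below for 10 members (28.8%) and above for 5 (22.3%). A single fit over all 12 arrays, which assumes 1 knockdown effect for Total and both pools, called ACAT2, EBP, INSIG1 and LSS lower and SC5D higher.

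FASN had a log2 level in LMW of 8.82 after 10 Gy and 8.88 after mock treatment in knockdown cells, against 7.0 and 7.74 in WT cells. Both knockdown arrays were above both WT arrays, and FASN rose by 1.48 (SE 0.447, limma adjusted p = 0.0106). In HMW its levels were 10.00 and 10.02 in knockdown cells, against 8.98 and 10.04 in WT cells, where the irradiated WT array was the low one and the fit gave 0.50 (SE 0.388, limma adjusted p = 0.524). ACLY had 11.84 and 11.94 in knockdown cells, against 10.78 and 11.16 in WT cells in LMW, with the knockdown higher in both pairs. It rose there by 0.92 (SE 0.325, limma adjusted p = 0.0348), whereas in HMW it was at -0.40 (SE 0.199, limma adjusted p = 0.230). ACACA, the step between them, was higher in knockdown cells in both pairs of both pools and did not pass, with 1.07 (SE 0.471, limma adjusted p = 0.108) in LMW and 0.64 (SE 0.342, limma adjusted p = 0.283) in HMW. Its second probe set, above the filter level in 6 arrays, gave -0.36 and -0.10. The LMW calls were lost for FASN with the median of its probe sets (0.81, limma adjusted p = 0.129), of which the second was below the filter level in all 12 arrays, and for ACLY without the filter, at the same difference of 0.92 (limma adjusted p = 0.0727).

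SC5D rose in both pools. In LMW it had 8.51 after 10 Gy and 8.39 after mock treatment in knockdown cells, against 7.97 and 6.47 in WT cells, and in HMW 9.66 and 9.68 in knockdown cells, against 8.72 and 7.06 in WT cells. The knockdown arrays were higher than either WT array in both pools, and the WT mock array was the lowest of each 4. The fitted differences were 1.22 (SE 0.434, limma adjusted p = 0.0355) in LMW and 1.78 (SE 0.419, limma adjusted p = 0.000721) in HMW. Without the WT mock arrays only the irradiated pair remains, with 0.53 in LMW and 0.95 in HMW, against 1.92 and 2.62 in the mock pair. With the median of its probe sets SC5D did not pass in LMW (0.61, limma adjusted p = 0.337) or in HMW (0.72, limma adjusted p = 0.264).

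The members that had fallen most in Total did not pass in either pool. HMGCS1 was at 0.02 in LMW (limma adjusted p = 0.990) and -0.38 in HMW (limma adjusted p = 0.701), with HMW levels of 8.77 and 8.99 in knockdown cells, against 9.63 and 8.89 in WT cells. SCD was at 0.24 in LMW and 0.28 in HMW, and the 2 pairs differed in sign in both pools. Of the members below 0, ACAT2 (-0.88 in HMW, limma adjusted p = 0.0799), LSS (-0.97, limma adjusted p = 0.0637) and INSIG1 (-1.02 in LMW, limma adjusted p = 0.129) had the lowest adjusted p on polysomes. In Total they were at -1.14, -0.99 and -1.01. The SE was larger in both pools than in Total for FASN, ACLY and ACACA. Not passing on polysomes therefore does not show that a fall was absent there. ACAT2 in HMW had 10.11 and 10.20 in knockdown cells, against 11.08 and 11.00 in WT cells, and LSS had 9.82 and 9.75 in knockdown cells, against 10.64 and 10.88 in WT cells, both without overlap.

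**Figure D2:**
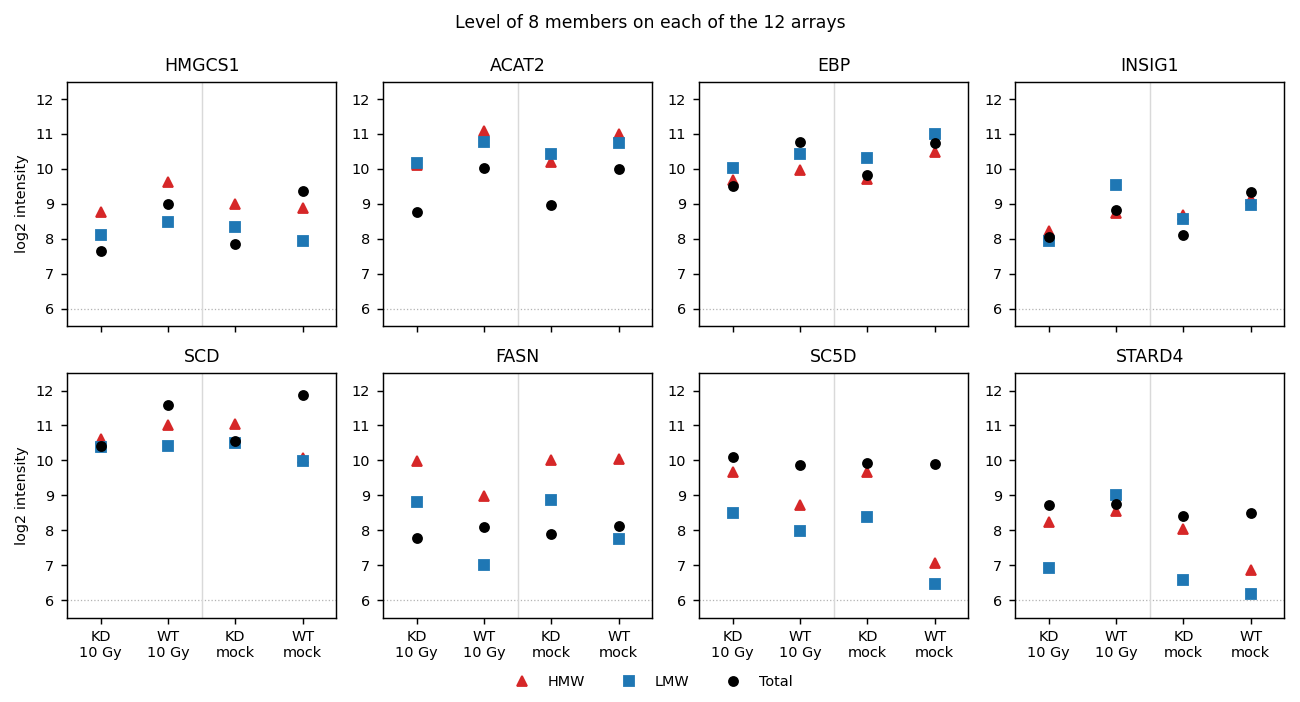
Log2 intensity of 8 members on the 12 arrays, with the knockdown (KD) left of WT within each treatment. Triangles are HMW, squares LMW and circles Total, and the dotted line is the filter level of 6. For HMGCS1 and SCD the Total circles are more than 1 unit lower in KD than in WT, while the polysome symbols are closer together. SC5D and STARD4 are lowest in the WT mock polysomes.

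Setting each polysome pool against Total within a condition gives an mRNA's level in the pool relative to its level in Total. It asks whether this relative level differed between the genotypes. The arrays had nearly equal median intensities, so these values do not give the fraction of an mRNA on polysomes. A shift shared by all mRNAs would not show. In HMW minus Total 1 member was higher and 0 lower in knockdown cells, against 2.84% and 0.453% of all genes, and the median was 0.41 over the members and -0.02 over all genes. The 1 call was SCD, whose HMW minus Total was 0.18 and 0.50 in knockdown cells (10 Gy and mock), against -0.57 and -1.81 in WT cells. The knockdown was higher in both pairs, by 1.53 (SE 0.439, limma adjusted p = 0.0213) in the fit. The irradiated pair gave 0.75 and the mock pair, which holds the WT mock HMW array, 2.31. With the median of its probe sets SCD did not pass (0.57, limma adjusted p = 0.543). SC5D (1.66, limma adjusted p = 0.0516) and HMGCS1 (1.07, limma adjusted p = 0.0569) did not pass. The difference was above 0 in both pairs for 19 of 26 members, against 27.1% of all genes.

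In LMW minus Total, a comparison added after seeing the data, 5 members were higher in knockdown cells and 0 lower, against 4.36% and 1.26% of all genes. They were FASN (1.76, SE 0.348, limma adjusted p = 0.000154), ACLY (1.65, SE 0.332, limma adjusted p = 0.000174), DHCR7 (1.49, SE 0.336, limma adjusted p = 0.00113), HMGCS1 (1.47, SE 0.414, limma adjusted p = 0.0141) and SREBF1 (1.17, SE 0.333, limma adjusted p = 0.0147). Each was higher in 2 of 2 pairs, as were 18 of 26 members, against 32.2% of all genes. The median was 0.60 over the members and -0.01 over all genes. The knockdown differences behind these values were 0.92 in LMW and -0.73 in Total for ACLY, and 1.48 and -0.28 for FASN. For SREBF1, LMW minus Total was 0.93 and 0.86 in irradiated and mock knockdown cells, against -0.93 and 0.37 in WT cells. For HMGCS1 it was 0.48 and 0.48, against -0.52 and -1.45. The p-values take no account of such scatter of a gene between the pairs. Since the HMW and LMW differences were taken from the same Total arrays, they are not independent of each other or of the fall in Total.

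Between the pools, HMW minus LMW was higher in knockdown cells for 1 member and lower for 3, against 5.26% and 8.07% of all genes. STARD4 had HMW minus LMW of 1.32 (10 Gy) and 1.46 (mock) in knockdown cells, against -0.46 and 0.66 in WT cells, a difference of 1.29 (SE 0.406, limma adjusted p = 0.0203). ACLY had 0.73 and 0.63, against 2.01 and 1.98 in WT cells. Its difference of -1.32 (SE 0.478, limma adjusted p = 0.0463) was similar in the 2 pairs, at -1.28 and -1.35. SREBF1 differed by -1.02 (SE 0.346, limma adjusted p = 0.0325), with -1.66 in the irradiated and -0.38 in the mock pair. DHCR7 differed by -1.01 (SE 0.327, limma adjusted p = 0.0244), with -1.24 and -0.78. After quantile normalisation ACLY (limma adjusted p = 0.0523) and SREBF1 (limma adjusted p = 0.0636) did not pass. With the median of its probe sets SREBF1 did not pass either (-0.67, limma adjusted p = 0.0899).

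Opposite signs in Total and on polysomes were seen for 3 members. ACACA, MSMO1 and SREBF1 were lower in knockdown cells in both Total pairs and higher in all 4 polysome pairs, a pattern that 3.62% of all genes had. MSMO1 had 11.16 and 11.00 in knockdown cells, against 11.46 and 11.49 in WT cells in Total, 11.00 and 11.09 in knockdown cells, against 10.95 and 10.65 in WT cells in LMW and 11.36 and 11.50 in knockdown cells, against 11.00 and 10.71 in WT cells in HMW, each with 10 Gy before mock. The excess of the polysome mean over the Total mean was 1.00 for ACACA, 0.81 for MSMO1 and 0.66 for SREBF1, and was not tested in this form. For 2 of them the pattern was that of 1 probe set. The second ACACA probe set had the opposite signs, with 0.34 in Total, -0.36 in LMW and -0.10 in HMW, and the second SREBF1 probe set, above the filter level in 12 arrays, gave 0.04 in Total, 0.15 in LMW and -0.18 in HMW.

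HMW against LMW asks which mRNAs were relatively more abundant in the heavy than in the light pool. Against LMW, 6 of 26 were higher in HMW and 6 lower, where 19.6% of all genes were higher and 21.1% lower, and the median was 0.22 over the members and -0.06 over all genes. Of the 6 fatty acid genes 3 were higher and 0 lower, while of the 7 farnesyl enzymes 1 was higher and 3 lower. FASN had HMW levels of 10.00, 10.02, 8.98 and 10.04 in irradiated knockdown, mock knockdown, irradiated WT and mock WT cells, against LMW levels of 8.82, 8.88, 7.0 and 7.74. HMW was more than 1 log2 unit above LMW in each condition, and the fit gave 1.65 (SE 0.226, limma adjusted p = 0.00396). ACACA (1.46, SE 0.143, limma adjusted p = 0.00156) and ACLY (1.34, SE 0.266, limma adjusted p = 0.00901) were also higher in 4 of 4 pairs, although the second ACACA probe set gave -0.50. SC5D (0.94), HMGCS1 (0.86) and SQLE (0.43) completed the higher group. HMGCS1 did not pass when the median over its probe sets was taken (0.54, limma adjusted p = 0.142). For SQLE a second probe set above the filter level in 12 arrays gave -0.54, and with the median of its probe sets SQLE did not pass (0.16, limma adjusted p = 0.564). The SQLE call was also lost without a filter, after quantile normalisation, without a trend, without the block and with any 1 of the 4 conditions left out.

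The members lower in HMW than in LMW were PMVK (-0.86, SE 0.121, limma adjusted p = 0.00420), TM7SF2 (-0.62), MVD (-0.59), EBP (-0.48), MVK (-0.45) and SREBF2 (-0.42), each in 4 of 4 pairs. PMVK had 9.41, 9.41, 9.35 and 10.04 in HMW, against 10.40, 10.19, 10.23 and 10.82 in LMW, in the same order of conditions. The lowest PMVK value in LMW was above the highest in HMW. Longer coding sequences can hold more ribosomes, and length was not analysed here. Without the mock knockdown pair 5 members were higher and 1 lower, and without the irradiated knockdown pair 5 were higher and 2 lower. The calls for EBP, MVK and SREBF2 were lost when the mock WT pair or either knockdown pair was left out. TM7SF2 lost its call when the irradiated WT pair or either knockdown pair was left out. MVD lost its call when the mock knockdown pair was dropped. MVK and SREBF2 also failed to pass with all genes unfiltered. Taking the median over a gene's probe sets, EBP (-0.32, limma adjusted p = 0.0814) and SREBF2 (-0.18, limma adjusted p = 0.445) did not pass. Without the condition as a block 0 of 26 members and 55 of all genes passed in limma, and 7 members had an unadjusted p under 0.05, against 22% of all genes.

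**Figure D3:**
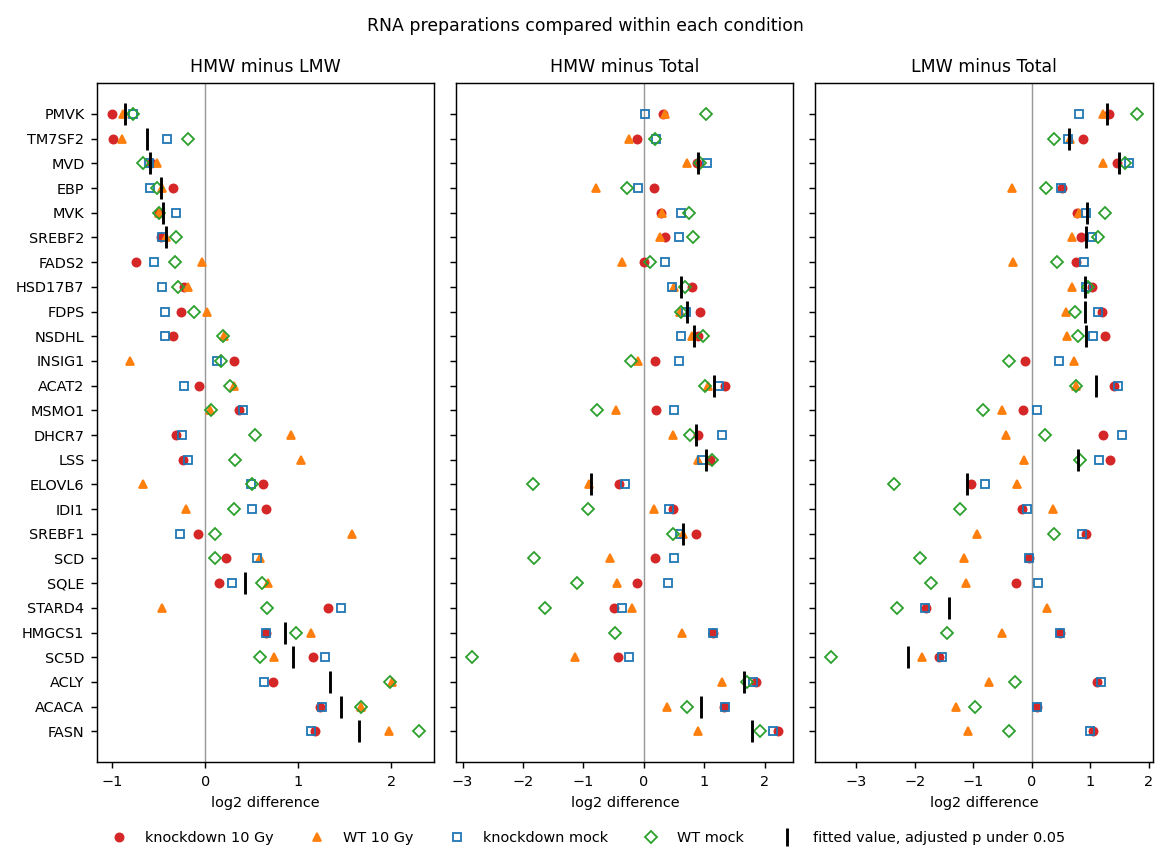
Log2 differences between RNA preparations within each condition, for 26 members ordered by HMW minus LMW. Symbols are the 4 conditions and black bars mark fitted values that passed the test. FASN, ACACA and ACLY are at the right of 0 in HMW minus LMW, PMVK, TM7SF2 and MVD at the left, and the WT mock diamonds lie farthest to the left for SC5D, SCD, ELOVL6 and STARD4 in the panels against Total.

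In HMW 11 of 26 members were higher than in Total and 1 lower, against 17.4% and 18.6% of all genes, with medians of 0.49 over the members and 0.03 over all genes. The higher ones were FASN (1.79), ACLY (1.66), ACAT2 (1.16), LSS (1.02), ACACA (0.94), MVD (0.89), DHCR7 (0.86), NSDHL (0.82), FDPS (0.71), SREBF1 (0.64) and HSD17B7 (0.61), and the lower one was ELOVL6 (-0.87). ACLY had 12.57, 12.56, 12.79 and 13.14 in HMW, against 10.72, 10.76, 11.51 and 11.44 in Total, so that every HMW array was above every Total array (limma adjusted p = 0.000517). The calls for SREBF1 and HSD17B7 were lost when the irradiated WT pair or either knockdown pair was left out. NSDHL lost its call without the irradiated WT or the irradiated knockdown pair, and ACACA and DHCR7 without the mock knockdown pair. ELOVL6 lost its call without the irradiated WT pair, and LSS without the condition as a block. With the median of probe sets ACACA (0.47, limma adjusted p = 0.0628) and ELOVL6 (-0.99, limma adjusted p = 0.0557) did not pass.

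In LMW 10 members were higher than in Total and 3 lower, against 28.5% and 28.1% of all genes, with medians of 0.31 over the members and 0.01 over all genes. This balance rested on the knockdown cells: without the mock or the irradiated knockdown pair 6 members were higher and 5 lower. The median over the members was 0.80 and 0.83 in irradiated and mock knockdown cells, against -0.19 and 0.23 in irradiated and mock WT cells. Of the farnesyl enzymes 5 of 7 were higher, led by MVD (1.48, SE 0.180, limma adjusted p = 0.00112) and PMVK (1.28, SE 0.236, limma adjusted p = 0.00354), and of the fatty acid genes 0 of 6. The lower ones were SC5D (-2.11, SE 0.340, limma adjusted p = 0.00236), STARD4 (-1.42, SE 0.396, limma adjusted p = 0.0163) and ELOVL6 (-1.11, SE 0.336, limma adjusted p = 0.0224). The calls for STARD4 and ELOVL6 were lost when the mock WT pair was left out. SC5D had 8.51, 8.39, 7.97 and 6.47 in LMW, against 10.09, 9.93, 9.86 and 9.91 in Total. Its Total arrays lay between 9.86 and 10.09, and the lowest LMW value was that of WT mock cells. For STARD4 the irradiated WT pair went the other way, at 0.26, against -1.81 and -1.83 in irradiated and mock knockdown and -2.30 in mock WT cells.

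After 10 Gy 1 of 26 members passed in any preparation. In Total 0 of 26 passed in either direction, where limma called 0.128% of all genes higher and 0.0492% lower after 10 Gy. At an unadjusted limma p under 0.05 there were 6 of 26 in Total, against 12.8% of all genes, and 2 in HMW, against 8.39%. In LMW 1 rose, STARD4, against 0.345% of all genes, and 0 fell, against 0.0295%. In HMW 0 passed, against 0.463% and 0.00985%. Fitted differences of the members in Total ran from -0.29 to 0.30 for 10 Gy, and from -1.45 to 0.33 for the knockdown.

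STARD4 in LMW was at 6.91 after 10 Gy and 6.57 after mock treatment in knockdown cells, and at 9.01 and 6.19 in WT cells. The irradiated WT array was the high one, and both irradiated arrays lay above both mock arrays. The fit gave 1.58 (SE 0.409, limma adjusted p = 0.0445) and averages 0.33 in knockdown with 2.82 in WT cells. The call was lost at the same difference of 1.58 without a filter, with the filter at 7 and without _x_at and _s_at probe sets. It was also lost after quantile normalisation, at 1.50, and over all 12 arrays, at 0.94.

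Within each genotype the response to 10 Gy rests on 1 array against 1 and was not tested. In knockdown cells 0 members were beyond 2-fold in any preparation, where 0.0197% of all genes were that much higher and 0.945% lower in Total, 0.226% and 1.10% in LMW, and 0.335% and 0.512% in HMW. In WT cells 0 members were beyond 2-fold in Total, where 0.0788% of all genes were higher and 0.00985% lower. In LMW of WT cells 4 members were beyond 2-fold higher and 1 lower, against 15.9% and 4.14% of all genes. They were STARD4 (2.82), ELOVL6 (1.88), IDI1 (1.51) and SC5D (1.50), and SREBF1 (-1.46) was the lower one. In HMW of WT cells SC5D (1.66) and STARD4 (1.70) were beyond 2-fold higher, against 15.8% of all genes, and FASN (-1.06) lower, against 2.20%. Each of these values uses a WT mock polysome array, the arrays that stood apart in their spread against Total, and an irradiated WT one. In LMW the irradiated WT array was the highest for STARD4, ELOVL6 and IDI1 and the lowest for SREBF1. IDI1 was at 11.22 there, against 9.71 in mock WT and 9.78 and 9.88 in irradiated and mock knockdown cells. The part of either array in the values was not tested.

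**Figure D4:**
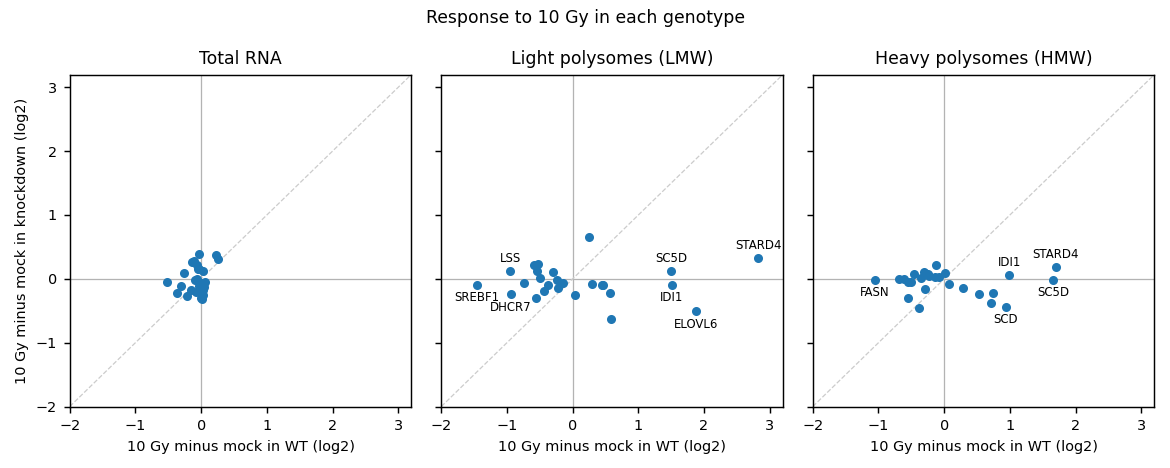
Log2 difference, 10 Gy minus mock, of 26 members in knockdown cells (vertical axis) and in WT cells (horizontal axis) for Total, LMW and HMW. Points are genes, and those beyond 0.8 in WT cells are named. In the polysome panels the points spread along the WT axis up to 2.82 for STARD4, while in knockdown cells no point is beyond 1.

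Genes next to the pathway were read from lists of further SREBP machinery and targets, the isoprenoid branch, sterol export and esterification, and fatty acid elongation and oxidation. Of 16 tested genes of the SREBP machinery and its other known targets, 9 fell in Total in knockdown cells and 0 rose, with a median of -0.38. The shares of all genes that fell and rose in Total were 19.8% and 20.7%. TMEM97, a sterol-regulated membrane protein that binds NPC1, fell by 1.78 (limma adjusted p = 5.26e-06) and the endoplasmic reticulum protein ERLIN2 by 0.88 (limma adjusted p = 0.000155). SOAT1, which esterifies cholesterol for storage, fell by 1.39 (limma adjusted p = 3.33e-05), the only call among 6 tested genes for sterol export, esterification or LXR response. Of 13 genes of the isoprenoid branch, which attaches farnesyl and geranylgeranyl groups and makes ubiquinone, 1 rose, FNTA (0.32), and 3 fell, among them COQ2 (-0.65) and ICMT (-0.37).

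Of 14 further genes of activation and elongation 3 rose, among them FADS3 (0.81) and ELOVL4 (0.41), and 4 fell, among them HACD3 (-0.48) and TECR (-0.46), both of the elongation cycle. These counts lie near the shares of all genes. Of 15 genes of fatty acid oxidation 6 rose, among them ETFB (0.69) and DECR1 (0.51), and 1 fell, HADH (-0.86). On polysomes the oxidation genes had 4 higher and 0 lower in LMW and 5 higher and 0 lower in HMW, against 10.3% and 5.10% of all genes in LMW and 5.82% and 4.09% in HMW, led by HADHA (2.07 in LMW), ACADVL (2.00 in LMW and 1.43 in HMW) and HADHB (1.57 in HMW). Of the 16 genes of the SREBP machinery and its other targets, 2 rose and 2 fell in LMW, and 2 rose and 1 fell in HMW. NPC1, the lysosomal cholesterol exporter, rose in LMW (2.38, limma adjusted p = 1.09e-05) and HMW (1.63, limma adjusted p = 0.000196) and also in HMW minus Total (1.61, limma adjusted p = 0.000490). The other risers were LPIN1 in LMW (1.52) and RDH11 in HMW (1.08). TMEM97 fell in LMW (-1.31, limma adjusted p = 0.0355) and HMW (-1.29, limma adjusted p = 0.0259), and PANK3 in LMW (-1.71, limma adjusted p = 0.00433).

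The reading of a gene depends on its probe set. Of the 26 members 8 had 1 probe set and 18 had more, with 33 others in all. Of the 22 others past the filter, 19 had the same sign of the knockdown difference in Total as the one used. For EBP the other probe sets past the filter gave -0.82 and -0.67, for HMGCS1 -1.34, and for IDI1 -1.17.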

How the data were processed

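RNA of the 12 samples was hybridised to arrays after labelling with a 3' in vitro transcription kit, per the labels' protocols. The authors deposited 1 intensity per probe set, not logged, from 4.29 to 26384.6 with 0 missing, made with RMA per the submitters' processing notes. The sources used here give neither the RMA version nor whether all arrays were normalised together. The intensities were turned to log2. Of 54675 probe sets 41097 had 1 gene symbol in the array's annotation, 1801 several and 11777 were not listed.

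Knockdown and 10 Gy were fitted together, without interaction, on the 4 arrays of a preparation or on 4 within-condition differences (1 residual degree of freedom), and preparations were compared over 8 arrays with the condition as a block, in limma 3.58.1 (R 4.3.3, eBayes with a trend), with Benjamini-Hochberg adjustment over 10157 genes at 0.05. The rule for names was every member, EIF4G1 as the check of the knockdown, and up to 4 passing genes of each neighbouring list, the 2 highest and the 2 lowest. The members and lists were chosen with earlier results of these data known. The scripts were tested on simulated data. Alternatives were other filters, probe set rules, normalisation, no trend, no block, pairs left out and a single fit of all arrays. Protein lengths were not used here.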

Additional observations from a re-analysis of the deposited data

Results flagged for a closer look

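The difference between RNA preparations in the knockdown effect passed the limma test for 5 member results in HMW minus Total and HMW minus LMW. Of all genes, 2.84% were higher and 0.453% lower in HMW minus Total, and 5.26% and 8.07% in HMW minus LMW. Another 5 member results passed in LMW minus Total, a comparison added after seeing the data: FASN, ACLY, DHCR7, HMGCS1 and SREBF1. There 4.36% of all genes were higher and 1.26% lower. SCD was higher in HMW minus Total by 1.53, a call lost with the median of its probe sets. In HMW minus LMW, STARD4 was higher by 1.29, and DHCR7 (-1.01), SREBF1 (-1.02) and ACLY (-1.32) were lower. The ACLY and SREBF1 calls were lost after quantile normalisation.

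For 4 further results every value of 1 kind moved one way and every value of the other kind the opposite way, and the difference was not tested. The knockdown difference was above 0 in all 4 polysome pairs and below 0 in both Total pairs for ACACA, MSMO1 and SREBF1, with means that lay 1.00, 0.81 and 0.66 apart. Of all genes, 3.62% had this pattern. ACAT2 was lower after 10 Gy in all 3 preparations of knockdown cells and higher in all 3 of WT cells, and the 2 means lay -0.22 apart. Both responses were small, from -0.25 to -0.09 in knockdown and from 0.03 to 0.08 in WT cells.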

How the results depend on the processing

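The 15 members called for the knockdown in Total became 9 of 14 tested without _x_at and _s_at probe sets and 5 over all 12 arrays, where SQLE (0.12), DHCR7 (0.10) and MSMO1 (0.15) changed sign. The 3 calls in LMW became 1 without a filter, 1 when a gene's probe sets were summarised by their median, 0 without _x_at and _s_at probe sets and 5 over all 12 arrays, where ACLY was at -0.071. The fit of 12 arrays gives 1 knockdown effect for all preparations, and its 5 calls were 1 higher and 4 lower. The 1 call in HMW became 0 with the median of probe sets, 0 without _x_at and _s_at probe sets and 5 over all 12 arrays. The 1 call for 10 Gy in LMW became 0 with no filter or one at 7, without _x_at and _s_at probe sets, after quantile normalisation and over all 12 arrays. Without _x_at and _s_at probe sets HMW against LMW had 6 calls, HMW against Total also 6 and LMW against Total 7, with 0 for the knockdown in HMW minus Total and 2 in HMW minus LMW. HMW against LMW had 0 calls without the condition block, with 7 members at an unadjusted limma p under 0.05. The 1 call in HMW minus Total became 3 unfiltered, 0 with the median of probe sets, 2 after quantile normalisation, 2 without a trend and 5 with LMW in place of HMW, and the 4 in HMW minus LMW became 2 after quantile normalisation. The cause of these changes was not tested, beyond the smaller number of members tested. With each condition left out in turn the calls ran from 6 to 14 for HMW against LMW (6 without mock and 7 without irradiated knockdown cells), from 8 to 15 for HMW against Total (8 without irradiated WT cells) and from 10 to 16 for LMW against Total (6 higher and 5 lower when either knockdown condition was left out).

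The fits of 4 arrays left no residual when an array was left out, so each pair alone gave a median with no test. These medians over the members ran from -0.48 to -0.41 for the knockdown in Total, from 0.080 to 0.26 in LMW, from -0.27 to -0.22 in HMW, from 0.23 to 0.33 in HMW minus Total and from -0.199 to -0.196 in HMW minus LMW. For 10 Gy they ran from -0.05 to -0.04 in Total, from -0.23 to -0.089 in LMW and from -0.19 to -0.01 in HMW. No paired analysis was possible because the labels give no replicate numbers that pair knockdown with WT arrays and each group has 1 array. Only preparations of the same condition were blocked. Limits are the 1 array per group, the mock and irradiated WT polysome arrays and signals near the filter level, as for MVD and TM7SF2.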
